A study of Mus musculus with 12 samples.

Results

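Common lymphoid progenitors (CLP) were compared with granulocyte-monocyte progenitors (GMP) in bulk RNA-seq of sorted mouse bone marrow, using 8 of the 12 libraries of the series, 4 of each type. All were from female C57Bl/6J mice, an inbred laboratory strain, and neither a mutation nor a treatment is given in the labels. Marrow mononuclear cells from iliac crest, femur and tibia were depleted of cells that carry CD3e, CD11b, B220, Gr-1 or TER-119. CLP were then sorted as Sca1-low, cKit-low, IL7Ra-positive and Flk2-positive cells. GMP were sorted as Sca1-negative, cKit-positive, CD150-negative, CD34-positive cells with Fc gamma receptor. Each type has 2 libraries in each of 2 batches named in the sample titles, while the mouse age and the animals per library are unstated in the labels. Whether each library had its own animals is likewise unstated, so every p-value here reflects variation among these 8 samples alone, and that variation may be technical. Values are TPM, transcript levels scaled per length and to a fixed library total, and differences are CLP minus GMP on the log2(TPM + 1) scale, which understates the change of genes near 0. A gene was tested where it reached 1 TPM in at least 4 of the 8 libraries, which 11538 did, and it was called at a limma adjusted p under 0.05 from a fit of cell type and batch. Values of the 4 libraries of a type are given in the order batch 1 replicate 1, batch 1 replicate 2, batch 2 replicate 1, batch 2 replicate 2.

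CLP and GMP lie on different branches of blood formation. CLP respond to interleukin 7 and give rise mainly to lymphocytes: E proteins, EBF1 and PAX5 switch on the recombinase that assembles antigen receptor genes and the surrogate light chain of the pre-B cell receptor. GMP give rise to granulocytes and monocytes: PU.1 and C/EBP factors switch on the receptors for myeloid growth factors and the serine proteases and peroxidase that are packed into primary granules.

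The promoters of 2 leading recombination and pre-B genes called higher in CLP, and of the 3 primary granule genes with the largest differences towards GMP, are shown because recombination, the pre-B cell receptor and primary granules are the groups described at length here. Each sequence is read 5′ to 3′ on the strand of the gene from RefSeq (GRCm38.p6). It begins 250 bases before the RefSeq start and ends there, or earlier where the GENCODE M21 annotation already has an exon of the gene, which leaves 185 bases for Elane and 197 for Prtn3. The Blnk window lies within an annotated exon and is not shown. Capitals mark matches on either strand to 5 short motifs: C/EBP (TTGCNNAA), PU.1 core (GAGGAA), RUNX (TGTGGT), EBF1 (CCCNNGGG) and E protein (CAGNTG). None of the marked matches overlaps another.
Dntt, chr19:41029025-41029274, plus strand: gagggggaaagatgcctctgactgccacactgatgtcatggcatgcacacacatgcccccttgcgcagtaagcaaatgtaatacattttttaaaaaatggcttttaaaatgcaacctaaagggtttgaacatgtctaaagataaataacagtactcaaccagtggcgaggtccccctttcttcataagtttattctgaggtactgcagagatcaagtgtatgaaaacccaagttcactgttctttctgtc
Vpreb3, chr10:75948050-75948299, plus strand: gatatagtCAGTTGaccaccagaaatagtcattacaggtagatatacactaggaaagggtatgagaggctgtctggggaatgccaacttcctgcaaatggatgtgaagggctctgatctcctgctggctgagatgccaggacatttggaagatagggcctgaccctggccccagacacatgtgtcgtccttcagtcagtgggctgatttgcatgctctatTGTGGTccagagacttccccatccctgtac
Elane, chr10:79886062-79886246, plus strand: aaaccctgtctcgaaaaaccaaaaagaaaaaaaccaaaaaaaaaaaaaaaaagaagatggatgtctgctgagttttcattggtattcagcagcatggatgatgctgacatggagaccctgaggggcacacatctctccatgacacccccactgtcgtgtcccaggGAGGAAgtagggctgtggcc
Ctsg, chr14:56102575-56102824, minus strand: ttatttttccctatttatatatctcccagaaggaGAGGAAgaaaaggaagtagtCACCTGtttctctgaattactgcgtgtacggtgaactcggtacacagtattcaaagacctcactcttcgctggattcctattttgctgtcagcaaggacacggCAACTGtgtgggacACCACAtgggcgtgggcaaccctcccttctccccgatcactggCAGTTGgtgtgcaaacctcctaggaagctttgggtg
Prtn3, chr10:79879417-79879613, plus strand: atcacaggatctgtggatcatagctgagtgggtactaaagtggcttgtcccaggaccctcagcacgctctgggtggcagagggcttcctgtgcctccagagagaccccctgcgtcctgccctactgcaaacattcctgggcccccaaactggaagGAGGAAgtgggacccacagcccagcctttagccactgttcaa

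The PU.1 core was found in all 3 primary granule promoters, on the strand of the gene, and in neither lymphoid one. It begins 85 bases before the RefSeq start of Elane, 95 before Prtn3 and 216 before Ctsg. Across the whole table the same letters occur in 28.3% of 32851 promoters. They occur in 30.1% of the promoters of genes called higher in GMP, 28.2% of those called higher in CLP and 26.7% of all tested, so the shares of the called genes lie near that of the table. The E protein motif was in Vpreb3 (1 match) and Ctsg (3), against 51.4% of all promoters. RUNX letters were in Vpreb3 and Ctsg, against 16.8% of all promoters. No C/EBP or EBF1 match lies in any of the 5 stretches, and the windows of the table hold them in 10.8% and 13.7% of cases. All these shares are over the full windows, which also reach past the start and are longer than the printed stretches; in its full window Prtn3 has 1 EBF1 match, beyond the start. A match describes the letters and is not a bound site. Some of the leading genes are close neighbours: Blnk and Dntt lie 34.7 kb apart on chromosome 19 and are read away from each other, and Prtn3 and Elane lie 3.1 kb apart on chromosome 10 in the same direction.

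CLP and GMP differed across 24.2% of tested genes. In bulk RNA, fewer cells of a type and less RNA per cell cannot be told apart. In CLP 1580 genes were higher (13.7% of those tested), 850 of them by at least 1 on the log2 scale, and 39 by at least 4. In GMP 1214 genes were higher (10.5%), 671 of them by at least 1, and 22 by at least 4. The shares of 13.7% and 10.5% are the background for each list count below. Each called gene had the same sign in both batches. Without overlap between the 4 CLP and the 4 GMP libraries were 1127 of the genes called higher in CLP and 924 of those called higher in GMP; among all tested genes 11.8% and 9.81% had no overlap in these directions. Leaving out GMP batch 2 replicate 1 left 976 and 815 calls, and leaving out GMP batch 2 replicate 2 left 1008 and 793. The median difference of all tested genes was 0.06, and 56.5% of calls were towards CLP, a share that was 46.2% after median-ratio scaling and 48.2% after quantile normalization. A gene expressed in 1 type alone passes the filter on low values only if that type is high in all 4 libraries, so it had to differ: 192 tested genes were under 1 TPM in every GMP library and 63 in every CLP library.

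The 8 libraries did not stand equally far apart. The first principal component (48.0% of the variance) separated CLP from GMP, and the second (27.7%) separated the CLP batches, with GMP between them in both batches. Libraries of 1 batch correlated across genes at r of 0.965 and 0.922 for CLP and 0.982 in both batches for GMP, and libraries of different batches at 0.834 to 0.882 for CLP and 0.951 to 0.956 for GMP. CLP with GMP libraries correlated at 0.785 to 0.885, a range that overlaps that of CLP libraries of different batches; genes are not independent replicates. The number of genes at 1 TPM or more was 11797 ± 434 in CLP and 11187 ± 120 in GMP (SD, n = 4 each; exact permutation p = 0.0857, two-sided). Depth is unknown, since TPM carry no read totals, so a value of 0 is described as listed at 0.

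The genes of the gates describe the sorted cells and are no finding. Il7r, the interleukin 7 receptor chain, stood at 86.5, 82.3, 76.6 and 130 TPM in CLP, while GMP libraries held 0.04 to 0.30 TPM. Fcgr3, which binds the Fc part of IgG, stood at 130, 132, 166 and 179 TPM in GMP and at 1.05, 0.35, 34.8 and 1.2 TPM in CLP, so 1 CLP library was far above the other 3. Flt3, which encodes Flk2, was above every GMP library in each CLP library, but unevenly, at 138 and 146 TPM in batch 1 and 8.91 and 16.98 TPM in batch 2. Kit was at 27.6 ± 13.7 TPM in CLP and 62.6 ± 10.9 TPM in GMP (SD, n = 4 each). Cd34, a marker of the GMP gate, was at 111 and 164 TPM in the batch 1 CLP libraries, 16.96 and 14.85 TPM in those of batch 2 and 102 to 146 TPM in GMP. Ly6a, which encodes Sca1, was at 37.6, 29.9, 27.3 and 2.24 TPM in CLP against 4.86 to 9.86 TPM in GMP, so the groups overlapped. The depletion genes Cd3e and Ly6g were at most 0.34 TPM in the CLP libraries of batch 1 and at most 0.07 TPM in GMP, but reached 10.4 TPM (Cd3e) and 46.3 TPM (Ly6g) in CLP of batch 2. Itgam, which encodes the depleted CD11b, was at 8.53, 11.7, 48.5 and 8.79 TPM in CLP against 15.2 to 17.6 TPM in GMP.

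**Figure D1:**
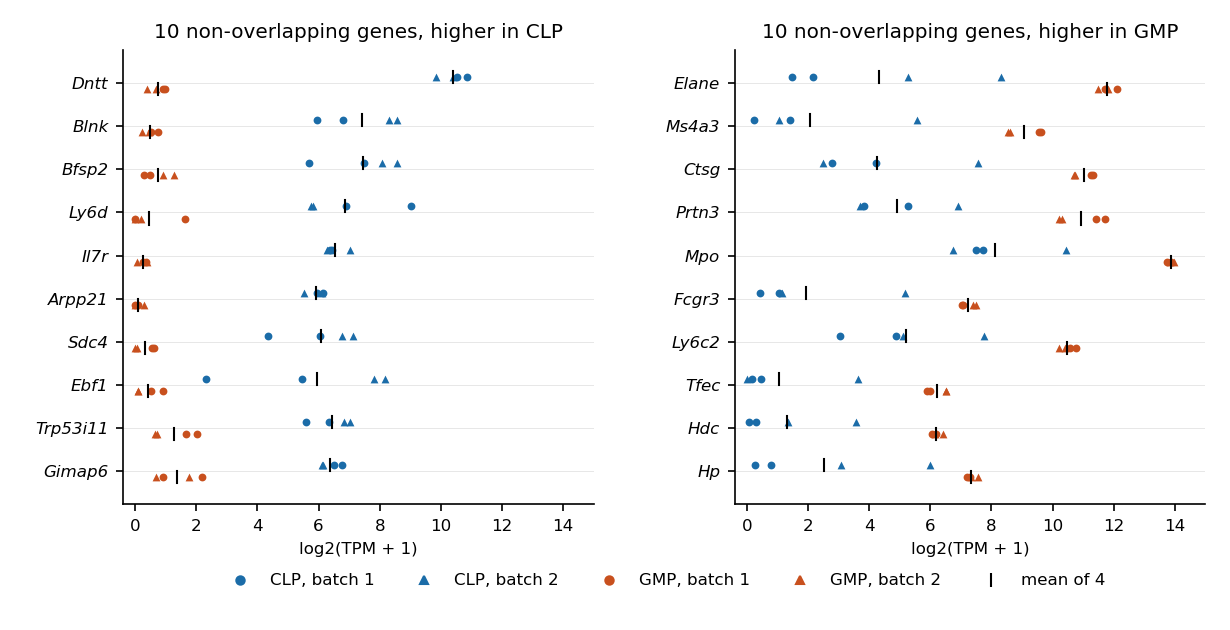
Levels of the 10 called genes with the largest differences in each direction among non-overlapping genes whose higher type averaged 10 TPM or more, as log2(TPM + 1) on the x axis, in every library (CLP blue, GMP orange, circles batch 1, triangles batch 2, bars the mean of 4). The absence of overlap follows from that choice, and the CLP triangle far to the right in the GMP panel is batch 2 replicate 1.

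Dntt, the gene of terminal transferase, which extends V(D)J joints without a template, had the largest difference of all. It stood at 1468, 1848, 922 and 1341 TPM in CLP and at 0.88, 0.97, 0.31 and 0.61 TPM in GMP, a difference of 9.66 (SE 0.16, adjusted p = 1.93e-08; chromosome 19, 41029275 to 41059525, mm10). The recombinase genes Rag1 and Rag2 were higher in CLP as well. Rag2 was at 74.8, 61.4, 78.2 and 89.0 TPM against 0.65 to 2.72 TPM (difference 4.97, SE 0.26, adjusted p = 2.17e-05; chromosome 2, 101624718 to 101632529). Rag1 was at 38.5, 6.00, 35.8 and 64.6 TPM against 0 to 0.25 TPM (difference 4.68, SE 0.57, adjusted p = 0.00106). Of these 3 lymphoid-restricted enzymes, Dntt and Rag1 were under 1 TPM in every GMP library. Their presence in every CLP library was therefore fixed by the filter and is no separate result. Rag2 also reached 1 TPM in GMP libraries, and Rag1 was lowest in CLP batch 1 replicate 2.

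Of 14 genes for V(D)J recombination and end joining, all tested, 7 were higher in CLP and none in GMP, with a median difference of 0.93. Of these, 2, Dntt and Rag1, passed the filter through CLP alone and had to differ. Besides the lymphoid enzymes, these were Xrcc5 (2.14) and Xrcc6 (1.46), the subunits of the Ku end-binding complex, the ligase gene Lig4 (1.66) and Hmgb1 (1.14), which bends DNA for the recombinase. Xrcc6 was at 126, 94.2, 95.1 and 100 TPM in CLP, against 31.4 to 45.2 TPM in GMP. Lig4 was unlike Ku, at 1.37 and 1.14 TPM in batch 1 and 14.2 and 24.9 TPM in batch 2, and its difference itself differed between batches (interaction adjusted p = 0.0477). The shared end-joining genes Prkdc, Xrcc4, Nhej1, Dclre1c and Paxx were not called, with differences of -0.70 to 0.41.

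Lymphoid transcription factors were mostly higher in CLP: 14 of the 16 tested, out of 19 on the list, were called towards CLP and 1, Ikzf2, towards GMP, with a median of 2.01. Bcl11a, a repressor needed for lymphoid development, was even over the libraries, at 79.2, 72.7, 75.8 and 85.7 TPM in CLP against 16.2 to 22.0 TPM in GMP (difference 2.03, SE 0.13, adjusted p = 6.73e-05). The E protein genes were higher too: Tcf3 by 1.56 (SE 0.21, adjusted p = 0.00161), Tcf12 by 0.74 (SE 0.11) and Tcf4, listed with the dendritic cell genes, by 2.15 (SE 0.20, adjusted p = 0.000328). Ikzf1, which encodes Ikaros, stood at 187 ± 29.3 TPM in CLP and 80.7 ± 20.4 TPM in GMP (SD, n = 4 each). Its relative Ikzf2 went the other way, with CLP libraries at 1.30 to 3.50 TPM and GMP libraries at 3.75 to 11.2 TPM (difference -1.16, SE 0.23, adjusted p = 0.00814). Mef2c (1.98), Satb1 (2.15) and Ets1 (3.22) were also higher in CLP without overlap.

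The B lineage factors were higher in CLP with a wide spread between CLP libraries. Ebf1, which specifies the B lineage, was at 43.4, 4.00, 222 and 288 TPM in CLP and at 0.06 to 0.87 TPM in GMP (difference 5.54, SE 0.99, adjusted p = 0.00531, chromosome 11, 44617317 to 45008091). Ebf1 was under 1 TPM in every GMP library, passed the filter through CLP alone and had to differ. Foxo1, an activator of Rag1 and Il7r, followed the same order at 19.1, 2.56, 68.3 and 79.5 TPM against 1.10 to 2.06 TPM (difference 3.19, SE 0.68, adjusted p = 0.0109). Batch 1 replicate 2 was the lowest CLP library for both. Pax5, which maintains B cell identity, was at 35.6, 0.81, 158 and 168 TPM in CLP, so that this library lay within the GMP range of 0 to 1.12 TPM (difference 4.65, SE 1.15, adjusted p = 0.0206). Pou2af1, a co-activator of B cell genes, was at 68.8, 0.38, 609 and 782 TPM against 0.22 to 2.43 TPM (adjusted p = 0.0402). Lef1, Irf4 and Ikzf3 did not pass the filter, since batch 1 replicate 2 had 0.12, 0.75 and 0 TPM, while batch 2 reached 138, 54.8 and 13.9 TPM.

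Among 19 genes of the pre-B cell receptor and the B lineage, 15 were tested, 10 were called higher in CLP and none in GMP (median 2.72). Of the 15, 2 passed the filter through CLP alone and had to differ, Blnk among them. Blnk, the adaptor below the receptor, was present in every CLP library at 111, 60.4, 318 and 377 TPM, against 0.17 to 0.66 TPM in GMP (difference 6.93, SE 0.45, adjusted p = 6.73e-05; chromosome 19, 40928927 to 40994535). Ighm, the mu heavy chain constant gene, was at 780, 620, 1114 and 1278 TPM against 104 to 194 TPM (difference 2.72, SE 0.12, adjusted p = 1.3e-05). Cd72, a B cell co-receptor, and Blk, a Src family kinase, were higher by 3.20 (SE 0.27) and 3.35 (SE 0.40). These 4 genes separated the types in both batches. For Blnk, and for any other member under 1 TPM in every GMP library, this followed from the filter. Ighm held 104 TPM or more in every GMP library, so its separation was not fixed in that way.

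The surrogate light chain did not behave so evenly. Vpreb1 was at 132, 1.33, 479 and 726 TPM in CLP against 0.16 to 2.15 TPM in GMP, and Vpreb3 at 170, 1.2, 664 and 932 TPM against 0.32 to 3.66 TPM. Cd79a, the signalling chain, was at 83.8, 0.82, 295 and 345 TPM against 0.05 to 1.63 TPM. Igll1, the lambda 5 chain, reached 2222 and 2677 TPM in batch 2, with 315 and 0.13 TPM in batch 1 and 1.47 to 3.86 TPM in GMP, and was not called (difference 5.94, SE 1.89, adjusted p = 0.0521). For each of these genes CLP batch 1 replicate 2 lay within or below the GMP range. The calls of Vpreb1, Vpreb3, Cd79a, Pax5, Pou2af1 and Tcf7 ended in 4 to 6 of the 8 fits that left out 1 library, always including those without CLP batch 1 replicate 1, CLP batch 2 replicate 1, GMP batch 2 replicate 1 and GMP batch 2 replicate 2 (adjusted p up to 0.116). The count of called B lineage members was 6 without CLP batch 1 replicate 1, GMP batch 2 replicate 1 or GMP batch 2 replicate 2.

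**Figure D2:**
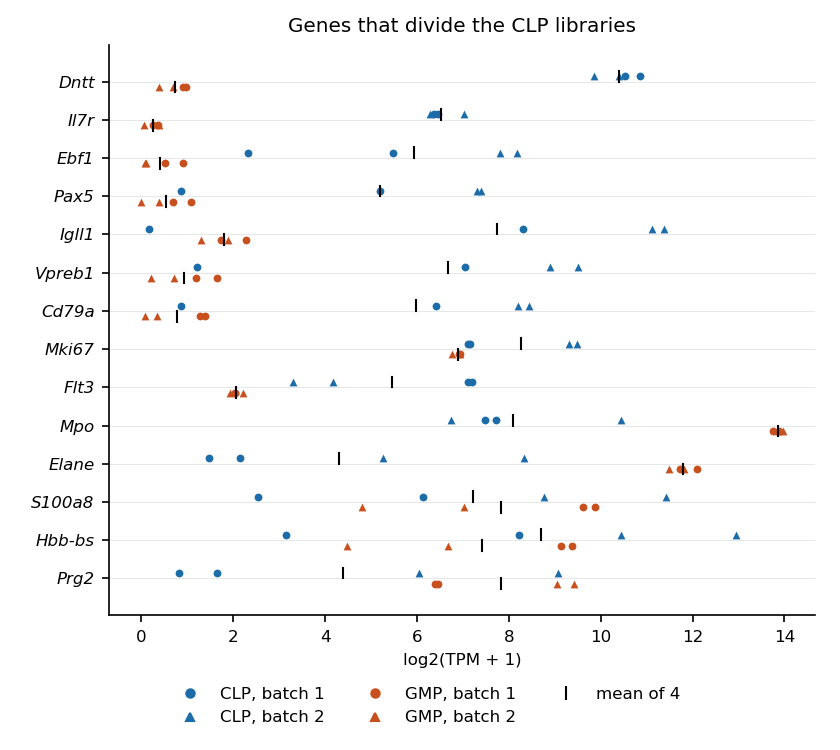
Levels, as log2(TPM + 1) on the x axis, of 14 genes chosen after their values were seen to show how the CLP libraries (blue) differ among themselves beside GMP (orange), with circles for batch 1, triangles for batch 2 and bars for the mean of 4. Dntt and Il7r are even over the 4 CLP libraries, and S100a8 and Hbb-bs spread over both types. In 1 batch 1 library Pax5, Igll1, Vpreb1 and Cd79a lie within or below the GMP range, while Ebf1 is low but above GMP.

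Early lymphoid receptors and signalling genes showed 13 of 18 tested members higher in CLP and none in GMP, out of 20 on the list, with a median of 1.64. The 13 include Il7r and Flt3, which are genes of the CLP gate and no finding. Of the 18, 7 were under 1 TPM in every GMP library and had to differ. Ly6d, a surface protein of B-biased CLP, was at 516, 117, 53.4 and 54.8 TPM against 0 to 2.12 TPM (difference 6.41, SE 0.54, adjusted p = 0.000256; chromosome 15, 74762056 to 74763620). Socs2 and Cish, inhibitors induced by cytokine receptors through STAT5, were higher by 4.25 (SE 0.27, adjusted p = 6.08e-05) and 2.12 (SE 0.32, adjusted p = 0.00265). Their partners in interleukin 7 signalling were nearer to each other: Il2rg, the common gamma chain, was at 53.3 ± 13.2 TPM in CLP and 28.7 ± 7.55 TPM in GMP (SD, n = 4 each), and Jak3 was not called (difference 0.39, adjusted p = 0.296). Notch1 was at 44.3 and 45.4 TPM in batch 1 but 14.2 and 10.3 TPM in batch 2, against 4.87 to 9.04 TPM in GMP. Cd27 was higher than GMP in batch 1 CLP and lower in batch 2 (1.56 and -1.19, interaction adjusted p = 0.0149). Ccr9 and Ccr7, chemokine receptors of thymus-seeding and lymph node homing cells, were higher by 2.25 (SE 0.38) and 2.75 (SE 0.34). Ccr7, from the homing list, was under 1 TPM in every GMP library and had to differ.

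GIMAP genes, GTPases of lymphocyte survival that sit side by side on chromosome 6, were higher in CLP for all 7 tested of 8 (differences 2.09 to 5.0, median 3.81). Of these, 4 passed the filter through CLP alone. Gimap6 was at 108, 90.1, 69.5 and 68.0 TPM against 0.59 to 3.55 TPM (difference 5.0, SE 0.32, adjusted p = 6.73e-05), and Gimap1 at 53.9 ± 14.0 TPM against 2.40 ± 0.70 TPM (SD, n = 4 each). Gimap9 had the smallest difference, 2.09 (SE 0.26, adjusted p = 0.00109).

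T and NK cell genes were present in CLP at low levels. Of 24 listed genes 7 were tested, and 5 were higher in CLP: Tcrg-C1, from the constant region of the gamma T cell receptor (4.90, SE 0.45), the kinase Lck (3.60, SE 0.38), Cd7 (2.78), Cd247 (2.55) and Thy1 (2.19). Tcrg-C1, Cd7 and Cd247 were under 1 TPM in every GMP library, passed the filter through CLP alone and had to differ. Tcrg-C1 was at 39.0, 10.7, 28.7 and 66.7 TPM in CLP, against 0 to 0.19 TPM in GMP. Cd3d, Cd3g, Ncr1 and Tbx21 were listed at 0 in every GMP library. Nkg7, a granule membrane protein known from NK cells, went the other way, with CLP libraries at 27.0 to 87.1 TPM and GMP libraries at 470 to 826 TPM (difference -3.27, SE 0.27, adjusted p = 0.000242). Zbtb16 was also called higher in GMP (-1.08, adjusted p = 0.0208), a call lost on leaving out CLP batch 1 replicate 1 or 2, GMP batch 1 replicate 1, GMP batch 1 replicate 2 or GMP batch 2 replicate 2 (adjusted p up to 0.0684).

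Some CLP genes with the largest differences are on no lymphoid list. Bfsp2, known as a filament protein of the eye lens, was at 179, 50.9, 267 and 378 TPM against 0.22 to 1.39 TPM (difference 6.72, SE 0.39, adjusted p = 4.66e-05; chromosome 9, 103424924 to 103480420). Arpp21, a cAMP-regulated phosphoprotein gene, was even at 69.3, 60.9, 44.8 and 67.7 TPM against 0 to 0.21 TPM (difference 5.83, SE 0.20, adjusted p = 3.38e-06; chromosome 9, 112065091 to 112235938). Sdc4, a heparan sulphate proteoglycan, was at 65.4, 19.2, 109 and 140 TPM against 0 to 0.53 TPM (difference 5.77, SE 0.52, adjusted p = 0.000314). Arpp21 and Sdc4 were under 1 TPM in every GMP library, passed the filter through CLP alone and had to differ. Trp53i11, named as a p53-inducible gene, was at 47.2 to 129 TPM against 0.57 to 3.07 TPM (difference 5.19, SE 0.41). Bfsp2, Sdc4 and Trp53i11 had their lowest CLP value in batch 1 replicate 2, as Ebf1 did.

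Primary granule proteins were higher in GMP, some of them at very high levels. All 11 listed genes were tested, 10 were called higher in GMP and none in CLP, with a median of -2.50. Mpo, the myeloperoxidase, stood at 15177, 13726, 14810 and 15970 TPM in GMP and at 178, 210, 1401 and 107 TPM in CLP (difference -5.76, SE 0.66, adjusted p = 0.00083; chromosome 11, 87793581 to 87804413). The neutrophil elastase gene Elane was at 4411, 3392, 2856 and 3597 TPM in GMP and 3.42, 1.79, 320 and 37.4 TPM in CLP (difference -7.48, SE 1.06, adjusted p = 0.00196; chromosome 10, 79886247 to 79888215). Its difference was -10.11 in batch 1 and -4.85 in batch 2 (interaction adjusted p = 0.045). Prtn3, proteinase 3, and Ctsg, cathepsin G, were lower in CLP by -6.00 (SE 0.71) and -6.75 (SE 0.97). Ctsg was at 2463, 2577, 1680 and 1718 TPM in GMP and 5.89, 17.7, 186 and 4.63 TPM in CLP. Srgn, the proteoglycan that packs granules, was at 346 ± 73.8 TPM in CLP and 1146 ± 234 TPM in GMP (difference -1.73, SE 0.09, adjusted p = 1.99e-05). Cst7, an inhibitor of cathepsins, and Prss57, a further serine protease, differed by -2.50 and -2.53. Lyz2, lysozyme, was not called, at 72.8, 82.7, 1853 and 314 TPM in CLP against 303 to 578 TPM in GMP.

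For Mpo, Elane, Prtn3, Ctsg and Lyz2, CLP batch 2 replicate 1 was the highest CLP library, while for Prss57 and Cst7 it was batch 1 replicate 2. Transcripts of other myeloid and erythroid cells moved with it. The 18 secondary granule and mature neutrophil genes summed to 191, 33.4, 12738 and 2071 TPM in CLP, against 81.6 to 1504 TPM in GMP, and Ly6g was listed at 0 in every GMP library and in both CLP libraries of batch 1. The 20 matched erythroid and megakaryocyte genes summed to 695, 169, 13944 and 2710 TPM in CLP, against 186 to 1462 TPM in GMP, with Ppbp listed at 0 in every CLP library. The 13 mast cell, basophil and eosinophil genes summed to 11.6, 9.41, 705 and 77.2 TPM in CLP, against 243 to 1086 TPM in GMP, with Mcpt4, Cma1 and Tpsb2 listed at 0 in every CLP library. With any 1 library left out, 10 or 11 primary granule members were called, and without CLP batch 2 replicate 1 a total of 1432 genes were called higher in GMP. The part of these transcripts in the other results was not tested.

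Myeloid transcription factors were higher in GMP for 9 of 13 tested genes, out of 15 listed, with a median of -1.61. Cebpa, needed for GMP to form, was at 23.0, 20.5, 36.4 and 35.2 TPM in GMP and 1.34, 1.87, 5.63 and 0.18 TPM in CLP (difference -3.42, SE 0.47, adjusted p = 0.00167; chromosome 7, 35119293 to 35121928). Cebpe, which drives granule maturation, was at 18.9 to 29.4 TPM in GMP and at most 5.29 TPM in CLP (difference -3.53, SE 0.49, adjusted p = 0.00187), and Cebpd differed by -2.28 (SE 0.40). Cebpg was not called (0.28, SE 0.14, adjusted p = 0.175), and Cebpb did not pass the filter. Spi1, which encodes PU.1 and acts in both lineages by dose, was present in both types, at 30.9, 39.8, 22.7 and 11.6 TPM in CLP and 105, 78.5, 60.5 and 65.0 TPM in GMP (difference -1.61, SE 0.23, adjusted p = 0.00203). Gfi1, a repressor of the granulocyte branch, differed by -2.55 in batch 1 and -0.85 in batch 2 (interaction adjusted p = 0.0142). Tfec, a factor of the MiT family, had the largest difference of the list, at 58.2 to 90.4 TPM in GMP and 0.36, 0.12, 11.4 and 0 TPM in CLP (-5.16, SE 0.66, adjusted p = 0.00126).

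Some members of that list did not follow it. Rara, the retinoic acid receptor alpha, was higher in CLP at 11.1, 9.83, 6.65 and 5.73 TPM against 0.85 to 3.45 TPM (difference 1.63, SE 0.35, adjusted p = 0.0108). Id2, an inhibitor of E proteins, was higher in CLP by 1.61 (SE 0.34, adjusted p = 0.0111) while Id1 was lower by -1.68 (SE 0.29, adjusted p = 0.0044). Irf8, which favours monocytes and dendritic cells, had opposite differences in the batches. It stood at 157 and 97.7 TPM in batch 1 CLP and 32.0 and 23.9 TPM in batch 2 CLP, against 51.0, 45.3, 72.9 and 84.1 TPM in GMP (1.35 and -1.47; interaction adjusted p = 0.00702; not called over both batches). Klf4 was called higher in GMP (-0.92, adjusted p = 0.0174), and that call ended without CLP batch 1 replicate 1, GMP batch 1 replicate 1 or GMP batch 2 replicate 2 (adjusted p up to 0.0619).

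Myeloid receptors and surface proteins were higher in GMP for 16 of 21 genes, all tested, with a median of -1.83. The 16 include the Fc gamma receptor genes Fcgr3 and Fcgr2b, which belong to the GMP gate and are no finding. Ms4a3, a surface protein of committed granulocyte-monocyte cells, was at 745, 794, 387 and 372 TPM in GMP and 0.17, 1.67, 46.0 and 1.08 TPM in CLP (difference -7.02, SE 1.0, adjusted p = 0.00204; chromosome 19, 11629496 to 11640851). The growth factor receptors were expressed in CLP at lower levels: Csf3r, for granulocyte colony-stimulating factor, at 11.8 ± 12.2 TPM against 56.3 ± 9.50 TPM, and Csf1r, for the macrophage factor, at 6.01 ± 3.14 TPM against 25.8 ± 11 TPM (SD, n = 4 each; adjusted p = 0.00976 and 0.0164). The chains for granulocyte-macrophage factor, Csf2ra and Csf2rb, differed by -1.30 and -1.94, while Csf2rb2 did not pass the test (0.01, SE 0.43, adjusted p = 0.989). Cd63, a granule membrane protein, was at 331 to 345 TPM in GMP and 9.05, 11.3, 87.9 and 4.91 TPM in CLP (difference -4.40, SE 0.70). Cd33, a sialic acid-binding receptor listed here, was higher in CLP at 21.8, 29.8, 12.7 and 4.24 TPM against 1.03 to 3.66 TPM (difference 2.44, SE 0.41, adjusted p = 0.00411). Cd93 was called in the same direction (0.66, adjusted p = 0.0448); that call ended in 6 fits that left out 1 library, with adjusted p of 0.0772 to 0.125, and remained without CLP batch 2 replicate 1 or GMP batch 2 replicate 2. Ly6c2, the Gr-1 related antigen of GMP, was at 1171 to 1739 TPM in GMP and 28.3, 7.17, 217 and 33.3 TPM in CLP. It is among the 16 but is also listed with the gate and depletion genes. Its reads may be shared with Ly6c1, a near copy.

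Genes of mast cells and basophils were part of the GMP side. Of 13 listed genes 7 were tested and 4 were higher in GMP, against 10.5% of all tested genes. Hdc, which makes histamine, was at 71.0, 65.4, 85.0 and 69.7 TPM in GMP and 0.24, 0.04, 10.8 and 1.52 TPM in CLP (difference -4.88, SE 0.54, adjusted p = 0.000721). Cpa3, a mast cell protease, differed by -3.75 (SE 0.41, adjusted p = 0.00064), and Ms4a2, a chain of the IgE receptor, by -3.05 (SE 0.46). Gata2, which acts in mast cells and stem cells, was at 9.30 to 17.7 TPM in GMP and 0.32 to 3.82 TPM in CLP (difference -2.68, SE 0.38, adjusted p = 0.00206). Prg2, an eosinophil granule protein, was called (-3.44, adjusted p = 0.0173) but overlapped, at 0.77, 2.12, 538 and 64.9 TPM in CLP; its call ended without CLP batch 1 replicate 1, GMP batch 1 replicate 1 or GMP batch 1 replicate 2 (adjusted p up to 0.0535). Hp, which encodes haptoglobin and is on no list, was at 146 to 188 TPM in GMP and 0.19, 0.74, 61.8 and 7.50 TPM in CLP (difference -4.82, SE 0.83, adjusted p = 0.00467).

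**Figure D3:**
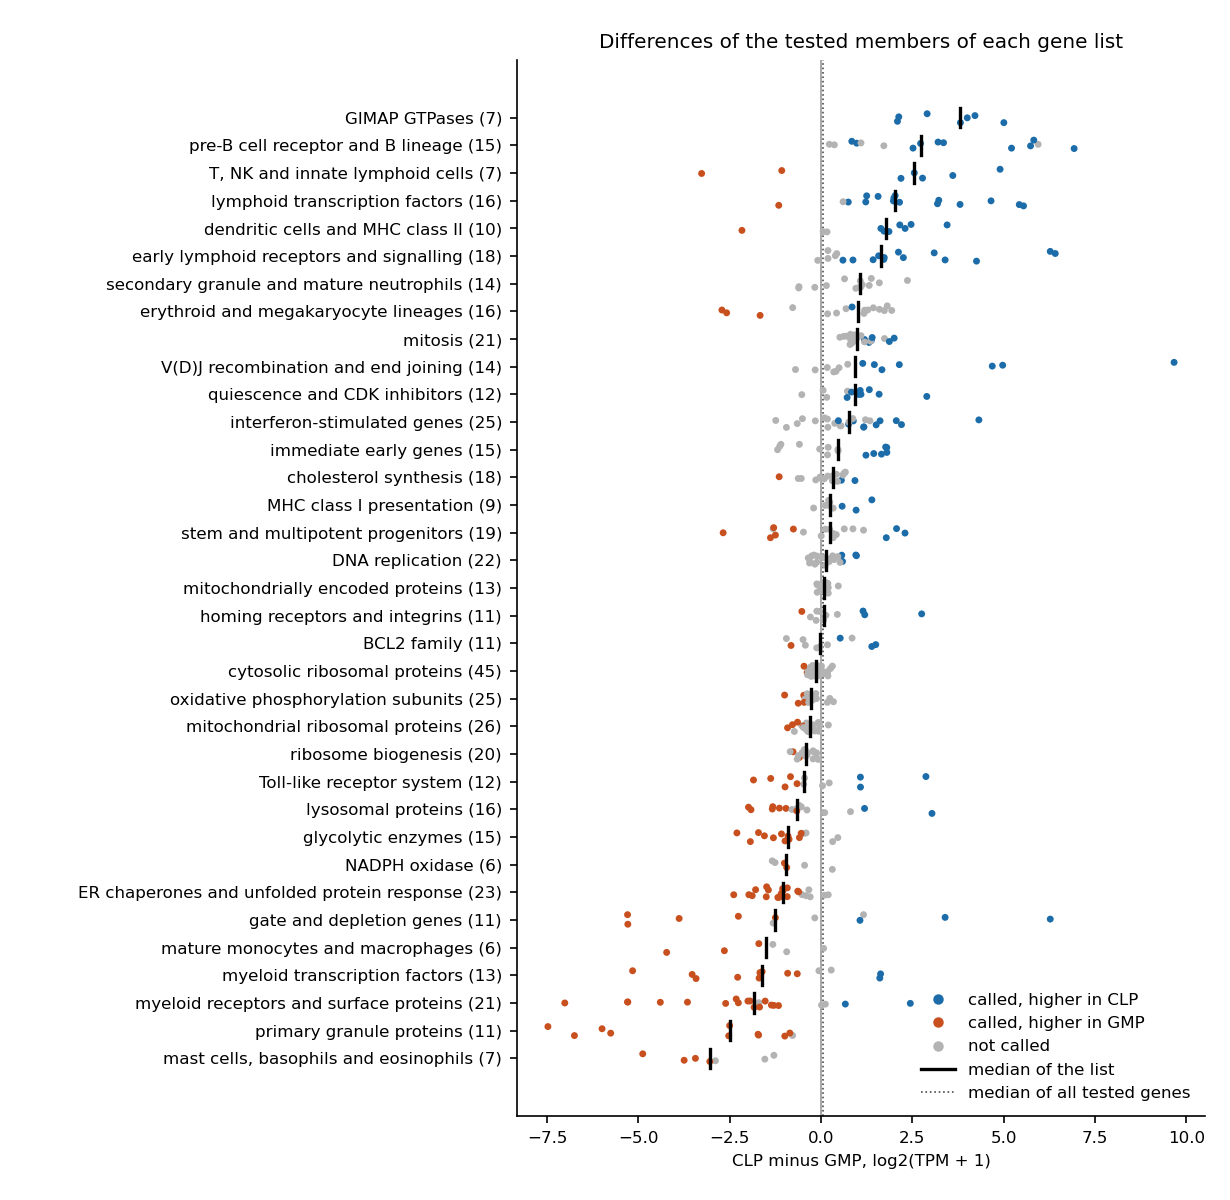
Differences between CLP and GMP, on the log2(TPM + 1) scale, of each tested member of the 35 gene lists with at least 5 tested members (number in parentheses), coloured by call, with the median of each list as a bar. GIMAP and B lineage lists lie to the right, and primary granule, mast cell and endoplasmic reticulum lists to the left, while ribosomal protein genes lie near 0.

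Chaperones of the endoplasmic reticulum, which fold secreted proteins, were higher in GMP as a group: 17 of 23 genes, all tested in both types, were called, and none was called higher in CLP (median -1.05). Calr, calreticulin, was at 103, 103, 176 and 147 TPM in CLP and 670, 627, 742 and 689 TPM in GMP (difference -2.39, SE 0.13, adjusted p = 2.94e-05; chromosome 8, 84841850 to 84846934). Hspa5, the main luminal chaperone, was at 194, 158, 408 and 325 TPM against 529, 575, 988 and 853 TPM (difference -1.49, SE 0.13, adjusted p = 0.000299). The disulphide isomerases P4hb, Pdia6, Pdia3 and Pdia4 differed by -1.98, -1.79, -1.44 and -1.16. The translocation channel genes Sec61a1 (-0.93) and Sec61b (-1.05) and the factor Xbp1 (-1.18) were higher in GMP too. Ddit3, Atf4, Herpud1, Dnajb9, Dnajb11 and Creld2 were the 6 members not called, with differences of -0.52 to 0.19. The list median was -1.04 in batch 1 and -1.01 in batch 2, and 17 to 19 members were called when any 1 library was left out.

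Glycolytic enzymes were higher in GMP for 11 of 15 tested genes of 16 listed, with none higher in CLP and a median of -0.91. Aldoa, aldolase, was at 63.3, 78.1, 107 and 37.6 TPM in CLP and 356, 280, 346 and 364 TPM in GMP (difference -2.31, SE 0.29, adjusted p = 0.00111), and Pgam1, phosphoglycerate mutase, at 143, 156, 247 and 142 TPM against 710, 465, 717 and 720 TPM (-1.94, SE 0.19, adjusted p = 0.000496). Gpi1 (-1.55), Pfkp (-1.31), Pkm (-1.09) and Eno1 (-0.99) were lower in CLP without overlap. Gapdh (-0.59) and Ldha (-0.55) had small differences whose ranges overlapped, and the glucose transporter gene Slc2a1 was not called (0.32, adjusted p = 0.376). When any 1 library was left out 10 to 12 members were called.

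**Figure D4:**
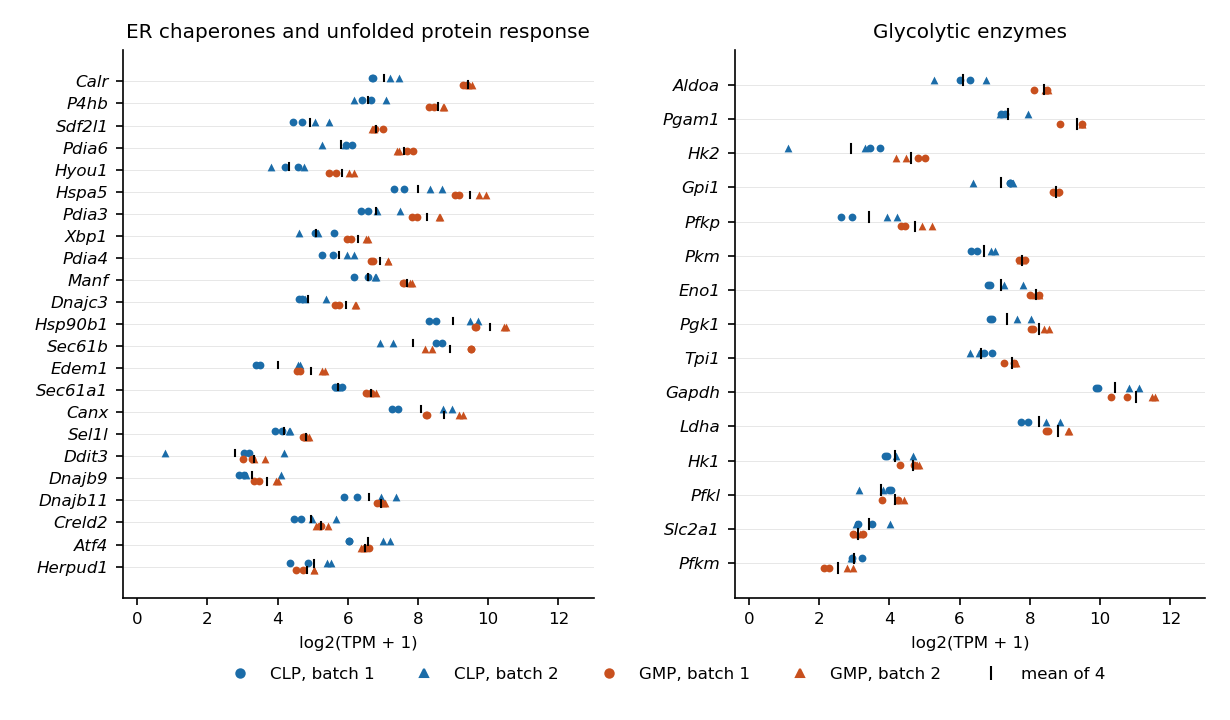
Levels, as log2(TPM + 1) on the x axis, of the 23 endoplasmic reticulum genes and the 15 tested glycolytic genes in every library, sorted by difference (CLP blue, GMP orange, circles batch 1, triangles batch 2, bars the mean of 4). The upper genes of both panels separate the types in each batch, and the lowest rows overlap.

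Lysosomal genes were split. Hexa, a hexosaminidase subunit, and Ctsz, cathepsin Z, were higher in GMP by -1.92 (SE 0.15) and -1.99 (SE 0.14), as were the membrane proteins Lamp1 (-1.32) and Lamp2 (-1.14). Lgmn, the asparagine endopeptidase, was higher in CLP at 7.79, 7.84, 6.76 and 9.09 TPM against 0 to 0.18 TPM (difference 3.03, SE 0.21, adjusted p = 8.26e-05). Lgmn passed the filter through CLP alone and had to differ. In all 7 of 16 were higher in GMP, against 10.5% of all tested genes. The 7 became 4 without GMP batch 2 replicate 1 or GMP batch 2 replicate 2. Toll-like receptors also went both ways: Tlr7, a sensor of RNA in endosomes, was higher in CLP at 21.3, 38.6, 3.79 and 3.72 TPM against 0.30 to 1.42 TPM (difference 2.87, SE 0.50, adjusted p = 0.00465). Tlr1 and Tlr2, surface sensors of lipoproteins, were higher in GMP (-1.85 and -0.99, adjusted p = 0.00241 and 0.0101). Tlr1 was at most 0.60 TPM in CLP, so it passed the filter through GMP alone and had to differ.

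MHC class II and dendritic cell genes were higher in CLP for 7 of 10 tested genes of 16 listed, against 13.7% of all tested genes. Of the 10, 2 passed the filter through CLP alone. Cd74, the invariant chain, was at 21.9, 24.7, 117 and 70 TPM in CLP, against 5.38 to 12.9 TPM in GMP (difference 2.46, SE 0.50, adjusted p = 0.00907), and H2-Aa at 30.4 to 105 TPM against 5.68 to 15.2 TPM (difference 2.30, SE 0.42). Siglech, a receptor of plasmacytoid dendritic cells, was higher in CLP of batch 1 than of batch 2, unlike Cd74. It stood at 70.2, 26.5, 5.49 and 1.02 TPM in CLP, against 0 to 0.58 TPM in GMP. Siglech thus passed the filter through CLP alone and had to differ. H2-DMb1, which loads peptides, was higher in GMP (-2.17, adjusted p = 0.0328), a call lost on leaving out CLP replicate 1 of batch 1 or of batch 2, GMP batch 2 replicate 1 or GMP batch 2 replicate 2 (adjusted p up to 0.0995). Histocompatibility genes have near copies, so their values are uncertain.

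Interferon-stimulated genes were called higher in CLP for 10 of 25 tested genes of 28 listed, with none called higher in GMP and a median of 0.75. Among all tested genes 13.7% were called higher in CLP. Of the 25, 20 had a positive difference, and the lowest difference was -1.24. At an unadjusted limma p under 0.05, 13 were higher in CLP and 2 higher in GMP. Ifi27l2a was at 137, 107, 44.3 and 89.9 TPM against 2.63 to 6.25 TPM (difference 4.32, SE 0.27, adjusted p = 6.08e-05), and Ifi44 and Rtp4 were higher by 2.2 and 2.06. Isg15 and Mx1 were not called. The count was 6 without CLP batch 1 replicate 1, GMP batch 1 replicate 1 or GMP batch 1 replicate 2. Immediate early genes were higher in CLP for 6 of 15 tested of 18 listed, against the same 13.7% of all tested genes. They were led by Egr1 at 2.66, 6.73, 12.8 and 9.58 TPM against 0.93 to 2.55 TPM and Dusp2, both with a difference of 1.80. Nr4a1, also among the 6, was under 1 TPM in every GMP library and had to differ.

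Mitosis genes differed between types mainly in batch 2. All 21 mitosis genes were tested, 6 were called higher in CLP over both batches, and all 21 had an interaction of type and batch, against 5.23% of tested genes. Their median difference was -0.10 in batch 1 and 2.22 in batch 2. Mki67, a marker of cycling cells, was at 141, 137, 633 and 718 TPM in CLP and 120, 121, 108 and 121 TPM in GMP. Top2a, which untangles chromosomes, was at 232, 188, 707 and 773 TPM against 143 to 178 TPM, and Ccnb1, cyclin B1, at 59.8, 55.7, 314 and 305 TPM against 86.5, 91.4, 48.8 and 39.0 TPM. The 2 CLP libraries of batch 2 were thus above all others. The 6 calls fell to 0 without CLP batch 2 replicate 1, GMP batch 2 replicate 1 or GMP batch 2 replicate 2, and to 1 without CLP batch 2 replicate 2. Of 22 DNA replication genes, all tested, 4 were higher in CLP (Ccne2, Ccne1, Pcna and Pole), against 13.7% of all tested genes. An interaction was called for 3 of the 22, and the median difference of the list was 0.08 in batch 1 and 0.12 in batch 2. Ccne2, cyclin E2, differed by 0.93 in batch 1 and 1.0 in batch 2 (adjusted p = 0.00684). The count was 2 without CLP batch 1 replicate 1 and 1 without GMP batch 2 replicate 1 or GMP batch 2 replicate 2, and Ccne2 kept its call in each fit that left out 1 library. Genes that restrain the cell cycle were also higher in CLP, 8 of 12 tested of 13 listed, against 13.7% of all tested genes. Cdkn1a, which encodes p21, was so in both batches, at 115, 73.5, 134 and 170 TPM against 7.51 to 23.5 TPM (difference 2.89, SE 0.22, adjusted p = 0.000142), whereas Cdkn2d and Cdkn2c differed by 0.52 and 0.28 in batch 1 and by 2.65 and 2.36 in batch 2. That count was 4 without CLP batch 2 replicate 1, 5 without CLP batch 2 replicate 2, 3 without GMP batch 2 replicate 1 and 2 without GMP batch 2 replicate 2; the calls of Cdkn2d and Cdkn2c ended in each of these fits (adjusted p up to 0.133), and also without CLP batch 1 replicate 1 and, for Cdkn2c, GMP batch 1 replicate 2.

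**Figure D5:**
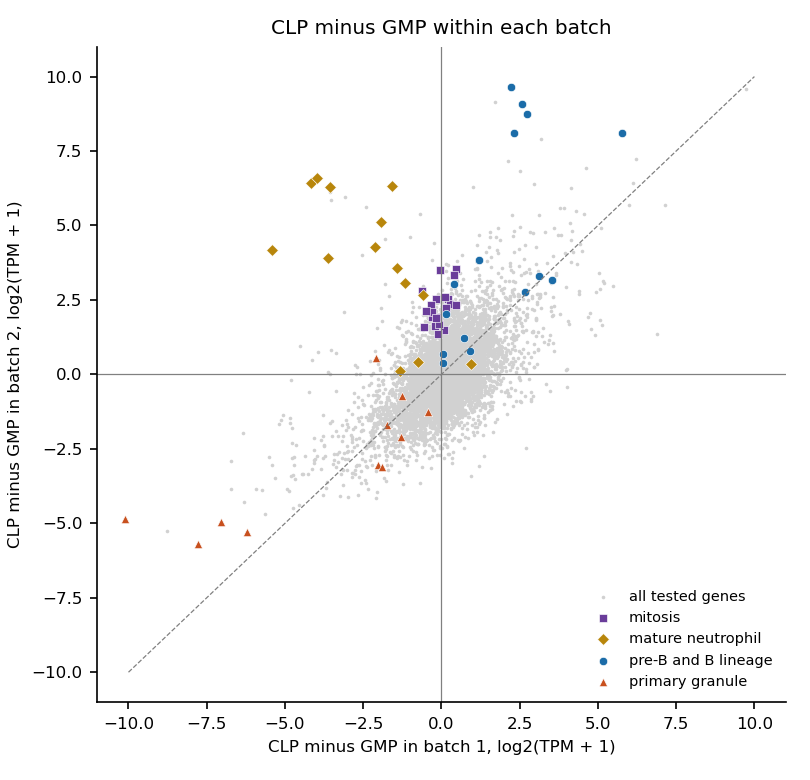
CLP minus GMP in batch 1 (x axis) and in batch 2 (y axis), both on the log2(TPM + 1) scale, for all 11538 tested genes (grey) and 4 lists, with the line of equal differences dashed. Mitosis genes lie near 0 in batch 1 and above 0 in batch 2, mature neutrophil genes mostly change sign, and the primary granule genes with the largest differences lie below 0 in both.

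The interaction test called 604 genes (5.23% of those tested), 370 with a difference shifted towards CLP in batch 2 and 234 shifted towards GMP. It called 124 of the 1580 genes higher in CLP and 31 of the 1214 higher in GMP. Leaving out any 1 library moved the count by more than 1.5 times. It was 385 and 152 without CLP batch 1 replicates 1 and 2, 2929 and 1121 without those of batch 2, 112 and 144 without GMP batch 1 replicates 1 and 2, and 89 and 86 without those of batch 2. Neutrophil and globin genes were the extreme case. S100a8, an abundant neutrophil protein, was at 69.3, 4.81, 2749 and 433 TPM in CLP and 785, 941, 26.9 and 128 TPM in GMP, and Hbb-bs, a beta globin with near copies, at 297, 7.86, 7882 and 1401 TPM against 558, 664, 21.1 and 102 TPM. Limma called none of the 14 tested neutrophil genes, and none passed an unadjusted p of 0.05, while 8 had an interaction.

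Stem and multipotent progenitor genes went both ways, with 3 of 19 tested genes of 26 listed higher in CLP and 5 in GMP. Among all tested genes 13.7% were called higher in CLP and 10.5% in GMP. Erg, an ETS factor, was at 71.4, 66.3, 213 and 215 TPM in CLP against 23.6 to 34.3 TPM (difference 2.06, SE 0.26, adjusted p = 0.00116), Msi2, an RNA-binding protein, was higher by 1.78 (SE 0.16), and Mycn by 2.30 (SE 0.46). Mycn was under 1 TPM in every GMP library and Myct1 in every CLP library, so each passed the filter through 1 type alone and had to differ. Lmo2 and Myct1 joined Gata2 and Kit, a gene of both gates, on the GMP side, at -1.30 and -1.39. Tal1 was the fifth (-0.76, adjusted p = 0.0478), and its call ended in 6 fits that left out 1 library, all but those without CLP batch 1 replicate 2 or CLP batch 2 replicate 1 (adjusted p up to 0.147). The homing list held Itga4, a chain of the VLA-4 integrin that was higher in CLP at 69.3 to 109 TPM against 31.7 to 46.3 TPM (difference 1.15, SE 0.12, adjusted p = 0.000638), and Itgb1, its partner, that was higher in GMP (-0.53, SE 0.11, adjusted p = 0.00861). BCL2 family genes were mixed, with 3 of 11 tested genes of 14 listed higher in CLP and 1 in GMP, against the same shares of all tested genes. The pro-apoptotic Bcl2l11 was higher in CLP by 1.39 (SE 0.20, adjusted p = 0.00204), as were the pro-survival Bcl2l1 (1.5) and Mcl1 (0.52), and the pro-apoptotic Bid was higher in GMP (-0.82). Without GMP batch 2 replicate 1 the calls of Bcl2l1, Mcl1 and Bid ended; that of Bid also ended without GMP batch 2 replicate 2, and that of Mcl1 also without CLP batch 1 replicate 1, GMP batch 1 replicate 1 or GMP batch 2 replicate 2 (adjusted p up to 0.0714).

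Housekeeping groups had small differences. For comparison with their counts, 13.7% of all tested genes were called higher in CLP and 10.5% in GMP. Of 45 tested cytosolic ribosomal protein genes 2 were called, both higher in GMP, with a median of -0.14, and limma called none of 13 mitochondrially encoded protein genes, also none at an unadjusted p under 0.05. Mitochondrial ribosomal proteins (4 of 26 called, median -0.29), oxidative phosphorylation subunits (6 of 25, median -0.28) and ribosome biogenesis genes (3 of 20, median -0.42) had no member called higher in CLP. Their signs were mostly towards GMP: 1 of 26, 3 of 25 and 0 of 20 members had a positive difference, and 9, 11 and 11 were lower in CLP at an unadjusted p under 0.05. When 1 library was left out, the counts ranged from 0 to 6 for cytosolic ribosomal proteins, 1 to 8 for mitochondrial ribosomal proteins, 1 to 9 for oxidative phosphorylation and 1 to 4 for ribosome biogenesis. Each of the GMP libraries and CLP batch 1 replicate 1 moved at least 1 of these counts by over 1.5 times, as did CLP batch 1 replicate 2, CLP batch 2 replicate 1 and CLP batch 2 replicate 2 for the ribosomal proteins.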

How the data were processed

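Bulk RNA-seq of 4 CLP and 4 GMP libraries was analysed; the 4 LMPP libraries entered only 1 alternative fit. The authors deposited 1 table of TPM for 38924 Ensembl gene IDs, of which 37607 carry a symbol, with library totals of 999999 to 1000001; 17 further columns matched no sample and were not used. Bowtie2 2.2.0, RSEM 1.2.12, edgeR 3.10.0 and build mm10 are named, per the submitters' processing notes, without order or settings. Estimates of this kind divide reads among near-identical genes, and whether counting used strand is not stated. Read depth is unknown, so no interval or floor was computed.

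Genes with at least 1 TPM in 4 or more of the 8 libraries were tested with limma 3.58.1 (R 4.3.3) on log2(TPM + 1), with cell type and batch as terms, a mean trend, 5 residual degrees of freedom and Benjamini-Hochberg adjustment over 11538 genes (two-sided, adjusted p under 0.05). The interaction of type and batch was a further fit. Members and lists were chosen with earlier results of these data known. Lists are described by counts and medians. Named are the 10 largest called differences in each direction with a mean of at least 10 TPM and no overlap, up to 4 leading called members of each list per direction, the gate and transcription factor lists and members behind counts of 5 or fewer; other list members named were chosen after their values were seen. Alternatives changed the pseudocount, filter, scaling, batch term, weights and libraries. A few list members are not reported here.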

Additional observations from a re-analysis of the deposited data

Results flagged for a closer look

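In 29 of 356 groups of 4 libraries, 1 library stood apart from the other 3 by more than Dixon's 95% critical value. Chance flags about 1 in 20 groups of normally distributed values, which values near 0 are not. For Gimap7, Tcrg-C1, Cd7, Mzb1 and Cd3e in GMP and Ms4a2 in CLP the other 3 libraries were at 0, so any value above 0 was flagged. CLP batch 1 replicate 2 stood apart for S1pr4 at 10.6 TPM. CLP batch 2 replicate 1 stood apart for Fcgr3 at 34.8 TPM, Tfec at 11.4 TPM, Cebpd at 2.48 TPM, Tlr1 at 0.6 TPM, Itga2b at 6.97 TPM, Cpa3 at 21.9 TPM, Ms4a2 at 4.1 TPM and Pgam1 at 247 TPM. CLP batch 2 replicate 2 stood apart for Nkg7 at 27 TPM, Nfe2 at 10.2 TPM, Rtp4 at 5.81 TPM, Nr4a1 at 9.86 TPM, Hk2 at 1.17 TPM, Gpi1 at 82.9 TPM and Ly6a at 2.24 TPM. GMP batch 1 replicate 1 stood apart for Tcrg-C1 at 0.19 TPM. GMP batch 1 replicate 2 stood apart for Ly6d at 2.12 TPM, Foxo1 at 1.1 TPM, Cd14 at 1.79 TPM, Gimap7 at 0.11 TPM, Cd7 at 0.97 TPM, Mzb1 at 0.08 TPM, Ifi27l2a at 6.25 TPM and Pgam1 at 465 TPM. GMP batch 2 replicate 1 stood apart for Egr1 at 2.55 TPM and Mki67 at 108 TPM. GMP batch 2 replicate 2 stood apart for Sdc1 at 0.04 TPM and Cd3e at 0.07 TPM. In CLP batch 2 replicate 1 the values of Fcgr3, Tfec, Cebpd, Tlr1, Itga2b, Cpa3, Ms4a2 and Pgam1 were each above those of the other CLP libraries, and all 8 genes were higher in GMP than in CLP. In CLP batch 2 replicate 2 each value except that of Nr4a1 was below those of the other CLP libraries.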

How the results depend on the processing

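No called gene was called in the other direction under any alternative run. Higher in CLP and higher in GMP were 827 and 733 genes without the batch term and 862 and 472 in batch 2 alone. Leaving out 1 library gave 976 to 1625 genes higher in CLP, 793 to 1432 higher in GMP and 86 to 2929 with an interaction. Irf8, not called over both batches, had a difference of 1.35 in batch 1 alone and with both CLP libraries of batch 2 left out. The replicate block gave 991 genes higher in CLP and 849 in GMP. Whether libraries of the 2 types with the same replicate number share animals is unstated. The differences between replicates 1 and 2 correlated between the types at r of -0.065 in batch 1 and -0.035 in batch 2. Such a correlation over genes cannot decide whether the samples were paired. Of 164 named called genes, 117 kept their call whichever library was left out. Median-ratio scaling gave 46.2% and quantile normalization 48.2% of calls towards CLP, against 56.5%. Read depth is unknown, so how far it limits low values cannot be given.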

Other observations

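Genes outside the lists, chosen after their values were seen, also separated the types. Tspan13, a tetraspanin, stood at 202 ± 61.5 TPM in CLP and 8.89 ± 1.28 TPM in GMP (SD, n = 4 each; difference 4.32, SE 0.20). Crip1, a LIM domain protein, was at 967 ± 248 TPM against 131 ± 51.3 TPM (difference 2.93, SE 0.21). Tnfrsf13c, the receptor for BAFF, was higher in CLP by 4.25 (SE 0.36), St6gal1, a sialyltransferase, by 4.58 (SE 0.27) and Bach2, a repressor in lymphocytes, by 3.85 (SE 0.42). None of these 5 genes overlapped between the types, but they were chosen with their values seen, so this is no separate result. Among all tested genes 11.8% had no overlap with CLP higher.

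Further genes were higher in GMP. Gstm1, a glutathione transferase, stood at 27.0, 32.2, 121 and 22.0 TPM in CLP and at 995, 802, 767 and 839 TPM in GMP (difference -4.40, SE 0.46). Gsr, the glutathione reductase, differed by -3.54 (SE 0.48) and Mt1, a metallothionein, by -4.81 (SE 0.64). Alas1, the first enzyme of haem synthesis outside red cells, was at 16.7 ± 8.07 TPM in CLP and 200.4 ± 41.0 TPM in GMP (SD, n = 4 each; difference -3.64, SE 0.35), with nearly equal differences in both batches (-3.64 and -3.63). Hk3, a hexokinase that is on no list here, differed by -4.40 (SE 0.70), and CLP batch 2 replicate 1 was its highest CLP library at 23.4 TPM.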
